A study of Drosophila melanogaster with 2 samples.

Results

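A total of 1108 strong candidate peaks of replicate 1 overlapped no strong candidate peak of replicate 2 by even 1 bp. Strong peaks, called top peaks here, are those of highest signal, as many from each replicate as the thresholded list of the authors holds. The 1108 peaks, called replicate 1 only peaks here, were 27.0% of the top peaks of replicate 1 and came from a list of 30000 candidates. They were chosen by the measured signal in both replicates, so their strength in replicate 1 and weakness in replicate 2 are descriptions and carry no test. The other 2989 top peaks of replicate 1 did overlap a top peak of replicate 2 and are called shared peaks. The mirrored rule gave 1065 replicate 2 only peaks among the equally many top peaks of replicate 2. A single library stands on each side of every comparison with that mirrored set, so those comparisons describe these 2 libraries.

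The data came from chromatin immunoprecipitation followed by sequencing on whole embryos of Drosophila melanogaster, 0 to 24 h old, with male and female embryos pooled. The flies, of the strain side-MiMIC-GFP, carry an eGFP exon in an intron so that a gene is made as a GFP fusion, and an anti-GFP antibody was used for the precipitation. There were 2 biological replicates of 1 group, both set against the same control. The labels name Side as the fusion and antibody target but give Sidpn as the gene targeted by the insertion, and the labels do not decide between these genes. An embryo holds many cell types, so a weak site in a whole-embryo library may be occupied in few cells or weakly in many, which these lists cannot tell apart. Sequencing depth is not known for either replicate, and all intervals below are 95% intervals that cover counting error only.

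Replicates of a ChIP-seq experiment are compared because a strong peak in a single library can come from the protein, from open chromatin or from the library itself. The irreproducible discovery rate procedure ranks the peaks of each replicate and keeps those whose ranks recur. Sidpn belongs to the basic helix-loop-helix repressors of the Hairy and Enhancer of split (HES) type, which bind E-box and N-box sequences and recruit the corepressor Groucho. The protein of side, known as Sidestep, sits in the membrane of muscle and guides motor axons.

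The windows printed here run 100 bases to each side of the summit and come from the plus strand of Release 6. They are the 4 strongest promoter members, the strongest intronic member and the strongest intronic member with no replicate 2 candidate, followed for contrast by the strongest promoter and intronic windows of the replicate 2 only peaks. Windows with an annotated UTR base were passed over, as were those on an arm that is not printed here. Capitals mark matches on either strand to 11 motifs whose share differed between sets, as given further down. The matches seen here are the Su(H) site GTGGGAA, the Ohler 7 core CAGCNCT, the Motif 1 core GGTCACAC read on the other strand, and the TATA box TATAAAA. The GC contents in the order printed were 33.8%, 52.2%, 56.2%, 48.8%, 42.3% and 34.3%, and then 23.4% and 31.3% for the replicate 2 only windows.
by promoter, chr3R:9533166-9533366: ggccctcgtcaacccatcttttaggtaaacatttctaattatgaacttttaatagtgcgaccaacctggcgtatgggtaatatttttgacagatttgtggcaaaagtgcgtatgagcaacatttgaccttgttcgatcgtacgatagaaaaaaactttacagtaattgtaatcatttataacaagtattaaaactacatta
CR46085 promoter, chr3R:27245250-27245450: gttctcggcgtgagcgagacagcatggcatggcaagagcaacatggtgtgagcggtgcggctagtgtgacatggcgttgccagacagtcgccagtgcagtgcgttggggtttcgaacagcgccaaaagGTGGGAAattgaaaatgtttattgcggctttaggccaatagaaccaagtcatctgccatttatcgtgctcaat
stwl promoter, chr3L:14409444-14409644: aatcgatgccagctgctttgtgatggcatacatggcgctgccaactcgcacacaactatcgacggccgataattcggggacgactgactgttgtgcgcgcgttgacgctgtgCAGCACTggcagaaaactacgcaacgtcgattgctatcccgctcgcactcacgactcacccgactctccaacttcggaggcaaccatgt
Tpst promoter, chrX:13563517-13563717: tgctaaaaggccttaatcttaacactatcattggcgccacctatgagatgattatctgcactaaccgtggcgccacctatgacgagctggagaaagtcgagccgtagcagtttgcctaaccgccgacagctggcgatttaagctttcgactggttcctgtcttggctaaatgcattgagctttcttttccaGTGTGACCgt
CrebB intron, chrX:18368145-18368345: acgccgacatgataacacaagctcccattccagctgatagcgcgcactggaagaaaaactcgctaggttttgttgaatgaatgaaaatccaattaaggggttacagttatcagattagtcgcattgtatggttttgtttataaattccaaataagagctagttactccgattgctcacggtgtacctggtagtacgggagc
Dhc36C intron, chr2L:17514244-17514444: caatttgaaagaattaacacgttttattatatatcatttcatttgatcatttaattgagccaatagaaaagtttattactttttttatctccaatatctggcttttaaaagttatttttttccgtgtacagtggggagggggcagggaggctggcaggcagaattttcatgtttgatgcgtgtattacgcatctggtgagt
CR43644 promoter, replicate 2 only, chr3R:26021320-26021520: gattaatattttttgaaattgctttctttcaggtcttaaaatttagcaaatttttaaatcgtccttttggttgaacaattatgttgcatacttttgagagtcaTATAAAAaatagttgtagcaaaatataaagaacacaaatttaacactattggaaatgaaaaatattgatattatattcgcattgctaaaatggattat
Zdhhc8 intron, replicate 2 only, chrX:9352220-9352420: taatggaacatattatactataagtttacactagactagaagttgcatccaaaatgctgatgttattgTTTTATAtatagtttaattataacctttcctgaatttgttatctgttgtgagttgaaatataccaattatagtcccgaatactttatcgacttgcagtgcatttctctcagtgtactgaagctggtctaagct

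The promoter of the long noncoding RNA gene lncRNA:CR46085 had a signal of 96.8 in replicate 1 and 15.2 in replicate 2, a ratio of 6.37. A start of CG18766 also lay within 500 bp of that summit. The signal is the value of the authors' peak caller, whose scale is not stated. stwl, a germline gene that keeps female germline stem cells from differentiating, had 88.4 in replicate 1 and 31.3 in replicate 2. Tpst, the enzyme that adds sulfate to tyrosines of secreted proteins, had 81.8 in replicate 1 and 24.8 in replicate 2. by, the tensin gene blistery that links integrins to the cytoskeleton, had 113 in replicate 1 and no overlapping replicate 2 candidate. The replicate 2 only peak at lncRNA:CR43644 had 44.3 in replicate 1 and 119 in replicate 2, and that in Zdhhc8 had 44.7 in replicate 1 and 110 in replicate 2. Both of these just missed the top peaks of replicate 1, at ranks 4268 and 4205.

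The replicate 1 only peaks sat low among the top peaks of their own replicate. Their median rank in replicate 1 was 3082, the best rank was 487, and 926 of them (83.6%) lay in the lower-ranked part of the top peaks, when these are cut at their middle rank. Only 17 of the 1000 strongest peaks of replicate 1 were replicate 1 only, while 983 were shared. Their own signal had a median of 54.3 (quartiles 49.0 and 63.4, highest 145), against 79.8 for shared peaks. Replicate 2 only peaks had a median own signal of 46.8 on the scale of replicate 2.

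In replicate 2, 1056 of the 1108 peaks still overlapped a weaker candidate and 52 overlapped none. The overlapping candidates had a median rank of 6315 (quartiles 5049 and 8848) and a median signal of 30.5, and 738 of them would be reached by a list 2 times as long as the top peaks. The median ratio of replicate 1 to replicate 2 signal was 1.93 over these 1056 peaks. It was above 2 at 471 peaks and above 3 at 156. The same ratio had a median of 1.15 over shared peaks, and the mirrored ratio of replicate 2 to replicate 1 was 1.51 over replicate 2 only peaks. The 2 scales were not brought together, and the signal of the last top peak was 45.5 in replicate 1 and 39.9 in replicate 2.

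**Figure D1:**
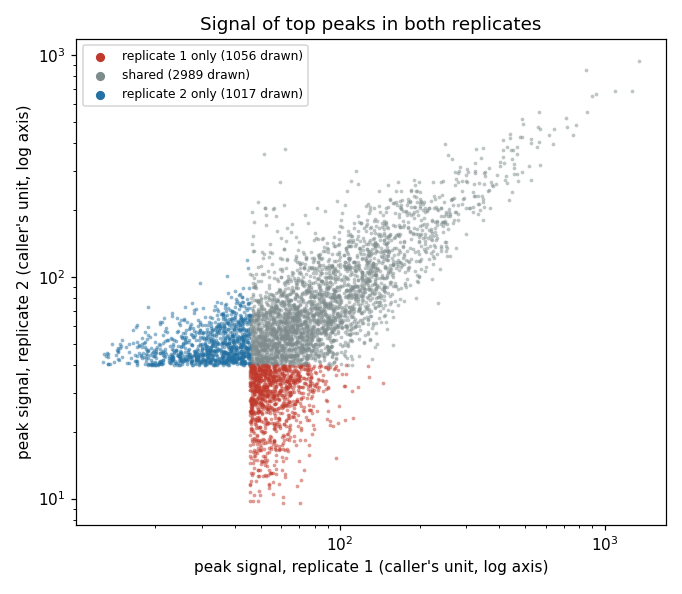
Signal in replicate 1 (x axis) and in replicate 2 (y axis), both log axes in the peak caller's unit, with 1 point per peak. Replicate 1 only and shared peaks are top peaks of replicate 1, drawn against their strongest overlapping candidate in replicate 2. Replicate 2 only peaks are top peaks of replicate 2, drawn against their strongest overlapping candidate in replicate 1. The 1056 replicate 1 only peaks with a replicate 2 candidate fill the strip under the replicate 2 cutoff of 39.9, and their replicate 2 signals run from 39.9 down to 9.58.

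In the list made from both replicates pooled, 1095 of the 1108 peaks overlapped a candidate, with a median pooled rank of 3891 and a best rank of 393. The optimal thresholded list of the authors held 632 of them, or 57.0% (54.1 to 59.9%, Wilson). With the top 2000 of each replicate in place of the top peaks the share was 98.0%. The list held 99.3% of shared peaks and 44.0% (41.1 to 47.0%) of replicate 2 only peaks. Of the 632 peaks, 540 had a replicate 2 candidate within a list 2 times as long, 75 had one ranked lower than that, and 17 had none. The pooled list contains the reads of replicate 1, so these shares are not an independent check of the peaks. Pooled signals ran higher than those of replicate 1, so the 2 are not on the same scale. Their median was 84.5 over the 1095 peaks, against 54.3 in replicate 1 over all 1108.

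At the edge of the rule the values were close together. The weakest members by rank in replicate 1 were at the prickle gene pk of planar cell polarity, at CG5835 and in pdgy, an acyl-CoA synthetase gene, all with a signal of 45.5. Members nearest the replicate 2 cutoff were at the kinase genes trc and Tlk and in Trim9, at replicate 2 ranks 4099, 4104 and 4108 and each with a replicate 2 signal of 39.9. Just outside it were shared peaks at Su(var)3-7, Tapdelta and Sema5c, with replicate 2 ranks of 4096, 4094 and 4093. Their replicate 1 signals were 51.7, 91.1 and 67.4, inside the range of the members.

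The strongest replicate 1 only peak lay in an intron of CrebB (chrX:18368168-18368352), which encodes a transcription factor that answers cyclic AMP. It had 145 in replicate 1, 33.1 in replicate 2 and 175 in the pooled list. The second was the promoter shared by Vha55, a subunit of the vacuolar proton pump, and Snx3, a sorting nexin, with 129 in replicate 1, 35.2 in replicate 2 and 173 in the pooled list. An intron of trbl, the tribbles pseudokinase that slows cell division, had 128 in replicate 1, 39.5 in replicate 2 and 160 in the pooled list. All 3 were thresholded peaks, and their ratios of replicate 1 to replicate 2 were 4.37, 3.67 and 3.24.

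The other members among the 25 strongest that overlapped a replicate 2 candidate had replicate 2 signals between 15.2 and 39.8. The promoter between Uch-L5, a deubiquitinase of the proteasome, and Jarid2, a partner of Polycomb repressive complex 2, had 112 in replicate 1 and 23.2 in replicate 2, a ratio of 4.82. An intron of Sxl, the switch gene of sex determination, had 98.4 in replicate 1, a ratio of 2.59 to replicate 2. An intron of the kinase gene Pak3 had 104 in replicate 1 and 22.6 in replicate 2. An intron of the palmitoyltransferase gene Zdhhc8 had 104 in replicate 1 and 32.2 in replicate 2, and the replicate 2 only peak of that gene printed above is in another part of that gene. The promoter of Pdss2, an enzyme of ubiquinone synthesis, and skd, a subunit of the Mediator kinase module, had 96.8 in replicate 1 and 36.2 in replicate 2. The promoters of Usp5, a ubiquitin protease gene, and of glec, lawc and the nucleolar gene Nopp140 had 105, 105, 103 and 102 in replicate 1. They had 36.3, 39.8, 32.3 and 36.4 in replicate 2. That of Usp5 also held a start of BtbVII, and that of Nopp140 a start of CG7148. The introns of lncRNA:CR32773, CG1677, px and CG11357 had replicate 1 signals of 111, 117, 99.2 and 98.4 and replicate 2 signals of 30.6, 32.0, 26.2 and 22.0.

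Of the 25 strongest peaks, 13 lay in introns, 11 at promoters and 24 overlapped a thresholded peak. There were 9 narrower than the 384 bp that 97.6% of the replicate 1 candidates have. Narrow peaks were otherwise rare among replicate 1 only peaks, with 15 of 1108 (1.35%), against 697 of the 2989 shared peaks (23.3%). Within 500 bp of a top peak of replicate 2 lay 116 of the 1108, and within 200 bp lay 30, beside a site that was strong in replicate 2. The part of such neighbours and of peak width in the results was not tested.

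Of the 25 strongest, 8 had no overlapping replicate 2 candidate, as had 52 of all members. Among them were an intron of chn, a zinc finger gene of neural development (122), and the promoter shared by CG4049 and CG3253 (120). So were the 3' UTR of pros, the homeodomain gene that commits daughter cells of neuroblasts (119), and an intron of ERp60, a protein disulfide isomerase gene (119). The promoter of by, an intron of fra, the Netrin receptor frazzled (105), and an intron of the dynein heavy chain gene Dhc36C (replicate 1 rank 1099) were also in this group. Those 7 all overlapped a pooled candidate, and their pooled signals ran from 138 to 293, on the higher pooled scale. A missing replicate 2 candidate means that no peak was listed there, and the reads of replicate 2 were not examined. Those of ERp60, fra, by and chn lay 9, 17, 34 and 321 bp from a top peak of replicate 2, and those of chn, CG4049, pros, by and fra were narrow, at 144, 113, 110, 145 and 155 bp. The promoter of Mal-A5, a maltase gene, had 118 in replicate 1, and neither a replicate 2 nor a pooled candidate.

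Further down, an intron of mgl, an endocytic receptor gene of the megalin family, had 78.6 in replicate 1 and 122 in the pooled list. An intron of chif, the Dbf4-like replication gene chiffon, had 83.4 in replicate 1 and 44.9 in the pooled list. The promoter of SCOT, an enzyme of ketone body use, had 80.1 and 115, and that of CG43367 had 70.5 and 94.3, again replicate 1 before pooled. An intron of ken, a repressor of JAK/STAT targets, had 72.2 and 56.6 in that order. Intergenic peaks nearest lncRNA:cherub and lncRNA:CR46077 had 75.6 and 72.3 in replicate 1 and no pooled candidate. Of all 52, 25 were at promoters, 17 in introns and 8 intergenic. Of these 52 peaks 18 lay within 500 bp of a top replicate 2 peak, 27 lay over 5000 bp from one, and 10 had no pooled candidate.

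The promoter share of the replicate 1 only peaks was within counting error of that of shared peaks and above that of replicate 2 only peaks. Summits no more than 500 bp from an annotated transcription start were counted as promoter summits. There were 626 of them (56.5%), against 57.8% of shared peaks, a difference of -1.28 percentage points with an interval of -4.70 to 2.12. It was 3.93 points with a promoter window of 200 bp and -10.6 points with the top 8000 of each replicate, both clear of 0 in opposite directions. Against the 533 of 1065 replicate 2 only peaks the difference was 6.45 points (2.26 to 10.6). It was no longer clear of 0 with the top 2000 (5.70 points), with the top 8000 (1.75) or at 35 to 45% GC (1.07). Introns held 28.0% of replicate 1 only peaks, 29.6% of shared peaks and 36.3% of replicate 2 only peaks, and the last differed from the members by -8.36 points (-12.3 to -4.43); at 35 to 45% GC this was -3.11 points and no longer clear of 0.

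Intergenic summits made up 11.7% of replicate 1 only peaks, 10.5% of shared peaks and 11.7% of replicate 2 only peaks. Coding exons held 9 members (0.812%), against 9 shared peaks (0.301%), a difference of 0.511 points (0.0414 to 1.25). In 6 of 12 alternatives the interval reached 0. With the top 8000 of each replicate the coding exon share of replicate 1 only peaks was 6.93%, against 0.420% of shared and 0.652% of replicate 2 only peaks, differences of 6.51 points (5.52 to 7.64) and 6.28 points (5.21 to 7.43). The 5' UTR, 3' UTR and noncoding RNA exon shares, at 0.903%, 1.17% and 0.903% of members, did not differ beyond counting error from those of either other set. In all, 7 classes were compared with each set and no adjustment was made for that.

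**Figure D2:**
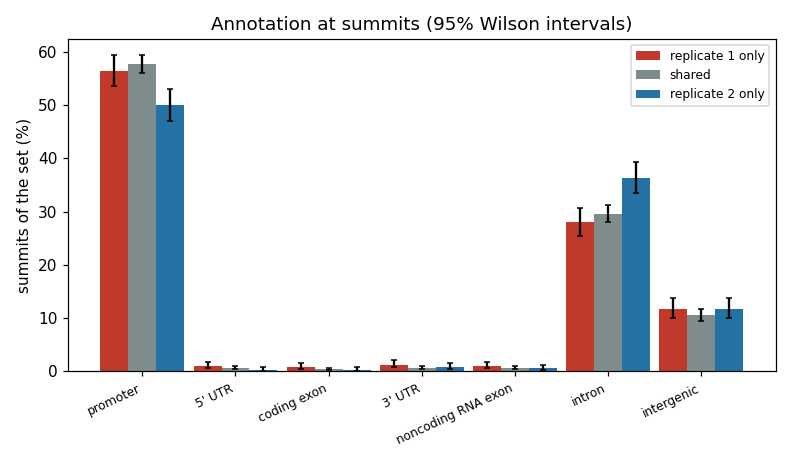
Share of summits in each annotation class (y axis, percent of the set) for the replicate 1 only, shared and replicate 2 only peaks, with 95% Wilson intervals as bars. Promoters lead in every set, and replicate 2 only peaks have the lowest promoter share and the highest intron share, 36.3%.

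GC content tended to be higher at the replicate 1 only peaks than in both other sets, though the sets overlapped widely. Within 100 bp of the summit the median GC content was 42.8%, against 38.8% for shared peaks and 36.3% for replicate 2 only peaks. The quartiles were 37.3% and 48.3%, 34.3% and 43.8%, and 31.8% and 42.8%, in the same order of sets. Windows of 45% GC or more were 36.3% of replicate 1 only peaks, against 20.3% of shared peaks, a difference whose interval was 12.9 to 19.2 points. Against the 17.7% of replicate 2 only peaks the difference was 18.5 points (14.9 to 22.1). The difference stayed clear of 0 in all alternatives that were run, between 13.0 and 22.7 points against shared peaks and between 14.6 and 28.4 points against replicate 2 only peaks.

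**Figure D3:**
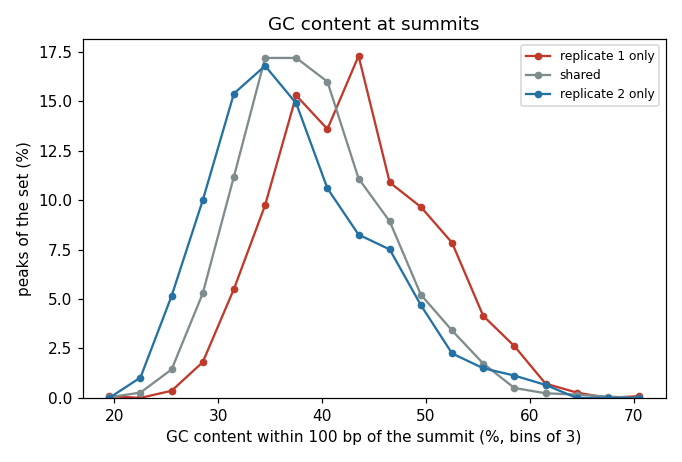
GC content within 100 bp of the summit (x axis, percent, bins of 3) against the share of the set in each bin (y axis, percent). The curve of the replicate 1 only peaks lies to the right of the other 2, with medians of 42.8%, 38.8% and 36.3% for replicate 1 only, shared and replicate 2 only peaks.

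The order of the sets held at promoters, in introns and between genes, the classes for which it was looked at. At promoters the median GC content was 44.3% for replicate 1 only, 39.3% for shared and 37.8% for replicate 2 only peaks. In introns it was 39.8%, 37.3% and 34.8% in the same order of sets, and between genes 39.6%, 38.3% and 35.3%. Among the lower-ranked part of the top peaks it was 42.8%, 38.8% and 36.8%. The order also held on arms 2L, 2R, 3L, 3R and X, while on arm 4 the 3 members had a median of 33.3%, against 37.3% for shared and 35.3% for replicate 2 only peaks.

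The share of top replicate 1 peaks that were replicate 1 only stood at 10.6% (7.31 to 15.2%) below 30% GC and 54.2% (45.7 to 62.5%) at 55% GC and above. The 5 bins between these held 16.7%, 22.9%, 31.3%, 33.6% and 45.6% in rising order of GC. The same share among the top peaks of replicate 2 was highest, at 35.5% (31.4 to 39.9%), in the lowest GC bin and between 20.5% and 28.6% in the others.

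**Figure D4:**
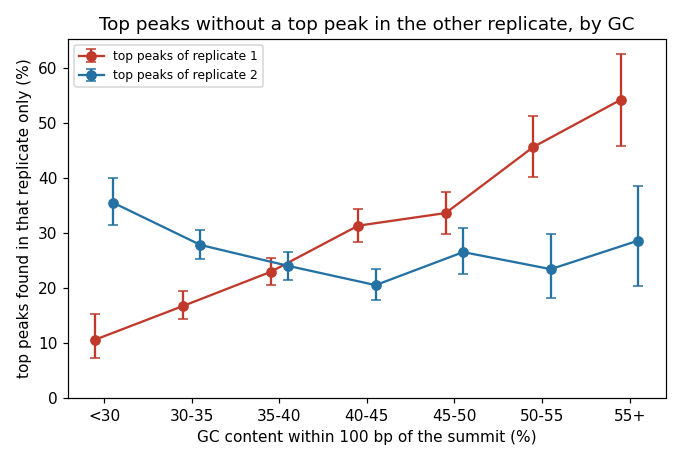
Share of the top peaks of each replicate found in that replicate only (y axis, percent) by GC content within 100 bp of the summit (x axis, percent), with 95% Wilson intervals. The share among replicate 1 top peaks is 10.6% in the lowest bin and 54.2% in the highest, while that among replicate 2 top peaks is highest, 35.5%, in the lowest bin.

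The GC difference was not confined to these peaks. All candidates of replicate 1 had a median GC content of 44.8%, and those of replicate 2 had 40.8%. Over the 4045 top peaks of replicate 1 with a replicate 2 candidate, the log2 ratio of replicate 1 to replicate 2 signal and the GC content had a Spearman rho of 0.32 and a Pearson r of 0.29, across peaks. Over all 18662 pairs of overlapping candidates the values were 0.16 and 0.15. Peaks within a library share its depth and its base composition and are not independent replicates, so these are descriptions. The part of library composition in the results was not tested.

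Promoter summits of the replicate 1 only peaks lay closer to, and more often downstream of, the start site. The median position was -12 bp from the nearest start site, against -62 bp for shared peaks and -55 bp for replicate 2 only peaks. Summits downstream of the start site were 43.8% of the promoter summits, against 23.7% of shared peaks and 31.9% of replicate 2 only peaks. The differences were 20.1 points (15.7 to 24.5) and 11.9 points (6.28 to 17.3), and at 35 to 45% GC the one with replicate 2 only peaks gave 4.52 points and was not clear of 0. Summits within 50 bp of a start site made up 46.0%, against 30.5% of shared peaks and 27.0% of replicate 2 only peaks, differences of 15.5 points (11.1 to 20.0) and 19.0 points (13.5 to 24.3). With the top 8000 of each replicate the first of these was 0.423 points and not clear of 0.

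**Figure D5:**
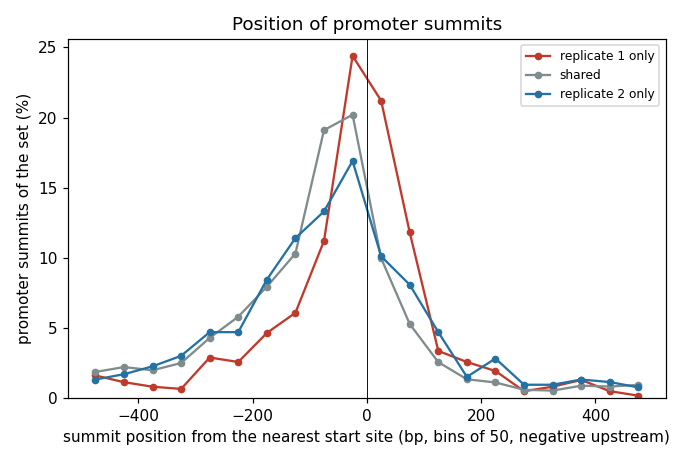
Position of promoter summits relative to the nearest annotated start site (x axis, bp, bins of 50, negative upstream) against the share of the promoter summits of the set (y axis, percent). The replicate 1 only peaks stand highest at and just past the start, and the medians are -12, -62 and -55 bp for replicate 1 only, shared and replicate 2 only peaks.

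Promoter summits with start sites of several genes in reach were 31.6% of replicate 1 only promoter summits, against 39.1% of shared ones, a difference of -7.51 points (-11.7 to -3.13). Against the 34.9% of replicate 2 only ones the difference was -3.27 points (-8.70 to 2.16). The summit-to-start distance over all classes had a median of 236 bp for replicate 1 only, 279 bp for shared and 496 bp for replicate 2 only peaks. The X chromosome held 222 of the 1108 peaks (20.0%), against 17.4% of shared peaks and 15.3% of replicate 2 only peaks. Those differences were 2.64 points (-0.0126 to 5.43) and 4.73 points (1.52 to 7.92). With the top 2000 of each replicate they were -0.483 and 1.85 points, neither clear of 0. The first was clear of 0 under 5 other alternatives, at 2.97 to 4.77 points.

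Each window was scanned on both strands for short motifs, of which 23 were compared with each set, with no adjustment for their number. The E-box CACGCG, a site of HES repressors, was in 7.85% of replicate 1 only windows, against 5.19% of shared and 4.88% of replicate 2 only windows. The differences were 2.67 points (0.990 to 4.55) and 2.97 points (0.914 to 5.04). They were 0.886 and 0.128 points at 35 to 45% GC, neither clear of 0, and it occurs in 5.86% of all replicate 1 candidate windows. The E-box CACGTG was in 2.53% of replicate 1 only, 2.88% of shared and 1.69% of replicate 2 only windows, and the N-box CACNAG in 24.6%, 23.1% and 21.1%, and no difference for either was clear of 0. CACGTG occurs in 3.02% and CACNAG in 26.2% of all replicate 1 candidate windows.

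Among core promoter sequences, the Motif 1 core GGTCACAC was in 4.51% of replicate 1 only windows, against 2.94% of shared and 2.63% of replicate 2 only windows, with 1.58% of all replicate 1 candidates. The TCT initiator CTCTTTC, typical of ribosomal protein genes, was in 6.14%, against 4.52% of shared and 4.04% of replicate 2 only windows, with 4.55% of all replicate 1 candidates. The TATA box TATAAAA was in 8.39% of replicate 1 only windows, against 359 of 2989 shared and 12.5% of replicate 2 only windows, with 7.01% of all replicate 1 candidates. Each of these 6 differences was clear of 0, and none was at 35 to 45% GC. There Motif 1 differed by 1.18 points from shared and 1.93 points from replicate 2 only peaks, close in size to the 1.57 and 1.88 points over all GC contents. The TCT initiator differed there by 0.288 and 1.09 points and TATA by -1.15 and -0.234 points, in the same order of sets. Against shared peaks the Motif 1 call was lost in 6 of 8 alternatives, and the difference was 0.350 points in the lower-ranked part of the top peaks. The TCT call against shared peaks was lost in 5 of 8 alternatives, and the difference changed sign in 1. Against replicate 2 only peaks the Motif 1 and TCT calls were each lost in 4 of 8. The Ohler 7 core CAGCNCT was in 14.1%, against 13.2% of shared and 8.36% of replicate 2 only windows, with 10.2% of all replicate 1 candidates, and the difference of 5.72 points (3.08 to 8.37) from the last set was clear of 0, though not where the overlap was sought in a list 2 times as long (3.90 points).

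The Su(H) site GTGGGAA, bound by the DNA-binding partner of Notch, was in 3.61% of replicate 1 only windows, against 2.28% of shared and 1.50% of replicate 2 only windows, with 2.80% of all replicate 1 candidates. Those differences were 1.34 points (0.214 to 2.69) and 2.11 points (0.784 to 3.50), and with the top 2000 they were 0.682 and 1.27 points, neither clear of 0. The difference from shared peaks also lost its call at 35 to 45% GC (1.18 points), without peaks close to a top replicate 2 peak (0.850) and with a motif window of 50 bp (0.678). The GATA site AGATAAG was in 1.62% of replicate 1 only windows, against 4.23% of replicate 2 only windows, a difference of -2.60 points (-4.10 to -1.20), with 2.48% of all replicate 1 candidates, and -1.88 points and not clear of 0 with the top 2000. Shared windows held it in 2.38%, a difference of -0.751 points (-1.60 to 0.298). Runs of 8 A were in 10.1%, against 12.8% of shared and 15.8% of replicate 2 only windows, with 9.96% of all replicate 1 candidates, and at 35 to 45% GC the differences were 0.844 and -1.16 points. A match here is a description of letters and not a bound site.

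Of the remaining motifs, GAGAGAG was in 7.40% of replicate 1 only windows, against 6.26% of shared and 4.98% of replicate 2 only windows. The difference from the last set was 2.42 points (0.391 to 4.47) and -1.33 points at 35 to 45% GC, and that from shared windows was 1.14 points (-0.533 to 3.02). Among the alternatives, the difference from replicate 2 only windows kept its call in 3, lost it in 4 and changed sign in 1. CACACACA was in 8.48%, against 5.35% of shared windows, a difference of 3.13 points (1.40 to 5.07). It was in 6.48% of replicate 2 only windows, a difference with an interval of -0.218 to 4.23 points. With the other sets weighted to the GC content of the members, its shares were 7.14% of shared and 10.5% of replicate 2 only windows. CATATG was in 5.69%, against 8.54% of replicate 2 only windows, a difference of -2.86 points (-5.06 to -0.697), and 7.03% of shared windows, a difference of -1.34 points (-2.90 to 0.410). These motifs were in 5.05%, 6.29% and 5.70% of all replicate 1 candidate windows. The E-boxes CAGCTG and CAGGTG, the DRE core TATCGATA and the CGATA core of BEAF within it, the Ohler 6 core GGTATTTT and the initiator TCAGTT showed no difference clear of 0. The same held for the Zelda site CAGGTAG, the Sox site ACAATG, the AP-1 site TGANTCA and the heat shock core GAANNTTC. Their shares among all replicate 1 candidate windows were 11.8%, 9.26%, 1.99%, 24.5%, 1.63%, 12.6%, 1.34%, 11.4%, 4.29% and 4.93%, in the order named.

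Of 2758 protein-coding genes with a top summit of replicate 1 within 500 bp of a start site, 752 (27.3%) had a replicate 1 only summit there. The matching share for replicate 2 was 656 of 2658 genes, or 24.7%. The gene lists below are read against the 27.3%, are counts only and carry no test, and genes at a shared promoter are not independent. That background was not matched for peak strength, and only 17 of the 1000 strongest peaks of replicate 1 were replicate 1 only. The part of peak strength in the counts was not tested.

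Cytosolic ribosomal protein genes, which code for the parts of the ribosome, were at 9 of 72 (12.5%), below the background. The mirrored count for replicate 2 only summits was also low, at 3 of 67 (4.48%), against 24.7%. RpL39 had 86.1 in replicate 1 and 36.2 in replicate 2, RpL38 had 67.6 and no replicate 2 or pooled candidate, RpS9 had 62.3 and 31.9, and RpS28a had 57.2 and 13.6. With a 1000 bp window the count was 14. Mitochondrial ribosomal protein genes were at 5 of 25, led by mRpS16 with 73.9 in replicate 1 and 38.2 in replicate 2. The translation factor list was at 4 of 20, with the release factor genes eRF1 and eRF3 at 80.3 and 63.1 in replicate 1. Oxidative phosphorylation was at 3 of 19, the proteasome at 2 of 8, and RNA splicing at 5 of 15, where SC35 shares its promoter peak with eRF3. The cell cycle list was at 2 of 12, with BubR1 at 64.4 and the Cdc25 phosphatase gene stg at 62.8 in replicate 1. No heat shock gene of 8 had a replicate 1 only summit, and 3 of 9 had a replicate 2 only summit. With a 1000 bp window the heat shock list did have a replicate 1 only summit.

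Among chromatin genes, the Polycomb and Trithorax list was at 5 of 19 (26.3%), close to the background. Beside Jarid2 and skd these were ph-d, phol and esc, with replicate 1 signals of 69.0, 64.6 and 61.3 and replicate 2 signals of 36.4, 20.6 and 37.7. With a window of 200 bp the count was 3. The Notch pathway was at 3 of 10, with mam, the coactivator mastermind, at 78.4 in replicate 1 and 24.2 in replicate 2, Nedd4 at 57.5 and 28.3, and pen-2 at 50.4 and 35.9.

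Developmental lists had small numbers, and some lay above the background in both replicates while others did so in 1 replicate. The counts for replicate 2 only summits, among genes with a top summit of replicate 2, are read against 24.7%. They were 4 of 14 axon guidance, 4 of 7 segmentation, 3 of 6 proneural and 2 of 5 glia genes. Trachea and epidermis had 1 of 3, muscle 2 of 7, and gut, fat body and hemocytes 1 of 4. Dorsoventral had 1 of 6, ecdysone response 1 of 5, germline 0 of 3 and neurons 0 of 1. Axon guidance was at 6 of 16 (37.5%), with the receptor genes drl, Ptp10D and fra at replicate 1 signals of 63.2, 52.8 and 51.5 and the Netrin gene NetB at 60.5. Segmentation was at 3 of 6, with the Wnt receptor gene fz at 62.6 in replicate 1 and 22.7 in replicate 2, wg at 48.3 and 33.8, and the Hedgehog receptor gene ptc at 48.2 and 36.5. Germline was at 3 of 6, with stwl, tud at 61.8 and the innexin gene zpg at 55.0 in replicate 1, and neither tud nor zpg overlapped a replicate 2 candidate. Dorsoventral genes were at 3 of 9 (pnr, vn and sog), gut, fat body and hemocyte genes at 3 of 5 (kay, pnr and dve), and ecdysone response at 2 of 6 (Hr78 and Eip63E). The proneural list was at 2 of 6, with the Sox genes SoxN at 58.9 and D at 50.8 in replicate 1. Glia was at 1 of 3 (pnt), neurons at 1 of 2 (Csp), and trachea and epidermis at 1 of 3 (cv-c). No muscle gene of 5 and no Hox gene had one, and no Hox gene had any top summit of replicate 1.

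At the genes named in the labels, the best promoter candidate of Sidpn, its summit no more than 500 bp from a start, ranked 13421 in replicate 1, 12913 in replicate 2 and 11611 in the pooled list, and that for side ranked 8304, 12644 and 9753. The only replicate 1 only peak within 5000 bp of Sidpn was at the promoter shared by mib2, a ubiquitin ligase gene, and CG31800 (chr2L:19034455-19034838). It had a signal of 46.0 in replicate 1 and 20.8 in replicate 2. No replicate 1 only peak lay within 5000 bp of side. Of 13 HES family genes, 1 had a top promoter summit of replicate 1, and it was not replicate 1 only. The clock repressor gene cwo (clockwork orange) held a replicate 1 only summit in its 5' UTR (70.9 in replicate 1, 20.7 in replicate 2). The noncoding gene lncRNA:CR43643 near E(spl)m3-HLH held another, with 48.5 in replicate 1 and 23.4 in replicate 2. In replicate 2, 2 of the 13 HES family genes had a top promoter summit, and 1 of them had a replicate 2 only summit. It was E(spl)m3-HLH, by the replicate 2 only peak printed above at lncRNA:CR43644, with a signal of 119 in replicate 2.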

How the data were processed

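Peak lists deposited by the authors on the dm6 build were used, with 1 candidate list per replicate, 1 for the pooled replicates and 1 optimal thresholded list. The signal in column 7 of the deposited lists is the value of the authors' caller, and neither its scale nor the caller and aligner are named in the labels or file records. The −log10 q-value column of the deposited lists was not used. Sequence came from Release 6 of the genome and annotation from Ensembl release 115, leaving out transposable elements and pseudogenes. Summits were classed as promoter, 5' UTR, coding exon, 3' UTR, noncoding RNA exon, intron or intergenic, in that order. A gene was named by a start within 500 bp, then by the gene holding the summit, then by the nearest. Other genes with a start within 500 bp of the same summit were not named in every case.

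Shares of summits were compared by their difference with a 95% Newcombe interval, and single shares carry Wilson intervals. No p-value was computed, because the peaks are not replicates and the rule used both replicates. The set rule was tested on planted peaks, and the interval on simulated independent draws with common shares only. Rare shares, such as those of coding exons and most motifs, and peaks that depend on each other were not simulated. The members, gene lists and motifs were chosen with earlier results of these data known. The genes named are those at the 25 strongest members and the 15 strongest members without a replicate 2 candidate, up to 4 genes of each list, side, Sidpn, the HES family and members beside the cutoffs. Tpst was shown as a sequence by the rule for windows, and genes with several members were named after their values were seen. Python 3.11.15, numpy 2.4.6, pandas 2.3.3 and scipy 1.17.1 were used. Alternatives were windows of 200 and 1000 bp, cutoffs of 2000 and 8000 peaks, other overlap rules and other subsets.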

Additional observations from a re-analysis of the deposited data

How the results depend on the processing

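With the top 2000 or the top 8000 of each replicate, the number of replicate 1 only peaks was 543 and 2279, or 27.1% and 28.5% of the list. Asking for no overlap with a replicate 2 list 2 times as long left 370. The dm3 lists gave 1108, overlap of 50% gave 1313 and summits 200 bp apart gave 1166. The promoter share against shared peaks was 3.93 points with a 200 bp window and -10.6 points, clear of 0, with the top 8000. Against replicate 2 only peaks it was 5.70 points with the top 2000, 1.75 with the top 8000 and 1.07 at 35 to 45% GC, none clear of 0. The share downstream of the start against replicate 2 only peaks was 4.52 points at 35 to 45% GC, and the share within 50 bp against shared peaks was 0.423 points with the top 8000, neither clear of 0. The cause of these changes was not tested.

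Some differences changed sign. Against shared peaks, introns gave 2.72 points with the top 8000, 0.425 with no overlap with the longer list and 0.252 at 35 to 45% GC. With the top 2000 of each replicate, coding exons gave -0.159, arm X -0.483 and the TCT initiator -0.684 points. Intergenic summits gave -0.946 points with a 200 bp window, A runs 0.844 at 35 to 45% GC and Ohler 7 -0.479 with no overlap with the longer list. GAGA repeats gave -0.0854 points in the lower-ranked part of the top peaks, -1.71 at 35 to 45% GC and -0.00556 with a motif window of 200 bp. Against replicate 2 only peaks, GAGA gave -1.33 points at 35 to 45% GC. Intergenic summits, which started at -0.00424, gave 0.282 with a 1000 bp window, 3.77 with the top 2000, 0.265 with overlap of 50%, 0.427 with summits 200 bp apart, 0.0811 with 1 peak per group of overlapping peaks, 0.846 at 35 to 45% GC and 0.00173 without narrow peaks. Among results for single classes, arms, motifs and lists under the alternatives, 192 kept direction and call, 48 lost the call, 9 gained it and 7 moved. The GC, neighbour and width subsets were chosen after seeing the data.

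No paired analysis was possible because there is 1 group only. Leaving out a replicate was not possible, since both replicates define the peaks. Depth is unknown, so no limit from it can be given.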

Other observations

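The 1108 replicate 1 only peaks named 977 genes, of which 869 had 1 peak, 88 had 2, 17 had 3 and 3 had 4. The 3 genes with 4 peaks were kibra, a gene of the Hippo pathway, mam and tara, a gene of cell cycle and chromatin control. The kibra peaks all lay in introns, with replicate 1 signals of 94.4, 54.2, 48.3 and 45.8. The mam peaks had 78.4, 67.8, 53.0 and 48.2, with 2 at promoters and 2 in introns, and the tara peaks had 75.7, 60.3, 57.7 and 56.4. These genes were picked for their counts after the values were seen, and no test was made. Among small RNA genes, 3 of 9 snRNA genes with a top summit of replicate 1 had a replicate 1 only one, against 2 of 18 tRNA genes and 2 of 17 snoRNA genes, beside 27.3% of protein-coding genes. For replicate 2 only summits the counts were 0 of 5 snRNA, 4 of 19 tRNA and 5 of 19 snoRNA genes, beside 24.7% of protein-coding genes. The snRNA and tRNA genes exist in near identical copies, so how reads were divided between them is uncertain. The tRNA:Gly-GCC-1-13 gene shares its peak with tud.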
